A study of Mus musculus with 6 samples.

Results

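Messenger RNA of 10 genes of the TGF-beta pathway was examined in BV2 cells, an immortalized line derived from mouse microglia. The genes encode the ligands Tgfb1, Tgfb2 and Tgfb3, the receptors Tgfbr1 and Tgfbr2, the signal carriers Smad2, Smad3 and Smad4, and the inhibitors Smad7 and Skil. They were taken as a named family, and every non-control probe whose transcript accession belongs to 1 of these symbols was included, which gave 16 of the 39429 probes on the array, for 10 of 32451 genes or unnamed transcripts. Of the 10 genes, 4 had 1 probe and 6 had 2 probes of the same gene. The cells had been grown on poly-L-lysine and had received recombinant mouse IL-4 at 10 ng/ml, or PBS as the vehicle, for 24 hr, with 3 samples in each group and 1 single-colour Agilent array per sample. All samples are of 1 cell line without genetic modification in the labels. The sample descriptions also contain the words human blood, against every other field. The labels do not state whether samples of a group were separate cultures, and the p-values below reflect variation among these arrays, part of which may be technical.

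TGF-beta is secreted as a latent complex and, once released, brings together the type II receptor Tgfbr2 and the type I receptor Tgfbr1. The active type I receptor phosphorylates Smad2 and Smad3, which join Smad4 and enter the nucleus to regulate genes. Smad7 blocks the receptor and Skil blocks the Smads on chromatin, and both are classical target genes of the pathway, so that they form feedback loops. In the brain, TGF-beta signalling is known for maintaining the gene programme of resting microglia.

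The scanner records give 2 scans in which array positions repeat, and these are treated as 2 slides. Slide 1 held the 3 IL-4 arrays and PBS replicate 1, and slide 2 held PBS replicates 2 and 3. Per array, 34655 to 38650 probes were well above background, with the lowest shares, 87.9% and 88.9%, on IL-4 replicate 1 and PBS replicate 2, which lay in position 1 of their slides. No non-control spot was saturated. The IL-4 label was checked on Arg1, Cish and Socs1, genes known to respond to IL-4. Over all arrays they rose by 2.02 ± 0.16, 1.07 ± 0.11 and 1.17 ± 0.14 on the log2 scale (SE, limma adjusted p = 0.011, 0.0228 and 0.0252). With slide as a block Arg1 was still called (adjusted p = 0.0316), and Cish and Socs1 were not (0.0725 and 0.126). Without IL-4 replicate 1 or without PBS replicate 2 limma called 0 of all genes, with 7033 and 6088 at an unadjusted p under 0.05, so Arg1, Cish and Socs1 were not called there either. The precision of every value is limited by the number of arrays, and as these are bulk samples, fewer cells that express a gene and less RNA per cell cannot be told apart.

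Smad3 and Tgfbr2 fell with IL-4, and the other 8 genes did not pass the test. A gene was called when the limma p-value of IL-4 minus PBS, adjusted by Benjamini-Hochberg over 29752 genes or unnamed transcripts, was under 0.05. Of all of these, 3.35% were called, and 2.54% were called as lower with IL-4. The share called as higher was 0.807%. Among the 10 genes 2 were called (20%), both lower. At an unadjusted p under 0.05 there were 5 of 10, against 34.1% of all genes (17.5% lower and 16.6% higher). All log2 values below are signals minus the array's own 75th percentile, and differences are IL-4 minus PBS. The difference was negative for 8 of the 10 genes and positive for Tgfb2 and Smad7, and its median was -0.23, against -0.05 over all genes tested.

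The start regions of both genes that fell are shown because they are the only 2 called members, with matches of 2 short motifs in capitals. Each line gives the 250 bases before an annotated start, from RefSeq on GRCm38.p6, minus strand, 5′ to 3′. Smad3 is at chr9:63757995-63758244 and Tgfbr2 at chr9:116175364-116175613.
Smad3: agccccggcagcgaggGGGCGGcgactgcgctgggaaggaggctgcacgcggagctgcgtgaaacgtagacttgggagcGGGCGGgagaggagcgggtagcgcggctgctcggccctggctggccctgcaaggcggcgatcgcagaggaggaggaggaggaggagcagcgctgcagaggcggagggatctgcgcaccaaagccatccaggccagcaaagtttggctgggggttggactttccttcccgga
Tgfbr2: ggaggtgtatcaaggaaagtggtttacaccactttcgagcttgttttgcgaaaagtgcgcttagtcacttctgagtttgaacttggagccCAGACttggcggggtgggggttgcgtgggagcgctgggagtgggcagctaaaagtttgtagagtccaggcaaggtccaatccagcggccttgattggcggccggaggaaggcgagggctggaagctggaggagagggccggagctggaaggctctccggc
The motifs, searched on both strands, were the Smad box CAGAC and the GC box GGGCGG, whose matches can share 1 end base and do not overlap here. The Smad3 window held 2 GC boxes and no Smad box. The Tgfbr2 window held 1 Smad box and no GC box. Over 32851 windows of the same length in the table, 42.2% held CAGAC and 32.7% held GGGCGG. A match is a description of the letters and not of a bound site. Windows of 5 of the 10 genes were searched. Matches were also present in genes that were not called, with 5 GC boxes for Tgfb1 and 2 Smad boxes for Tgfb2. For Tgfbr1, 1 window held 2 GC boxes and another held 1 Smad box. The GC content was 69.2% for Smad3 and 58.4% for Tgfbr2.

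**Figure D1:**
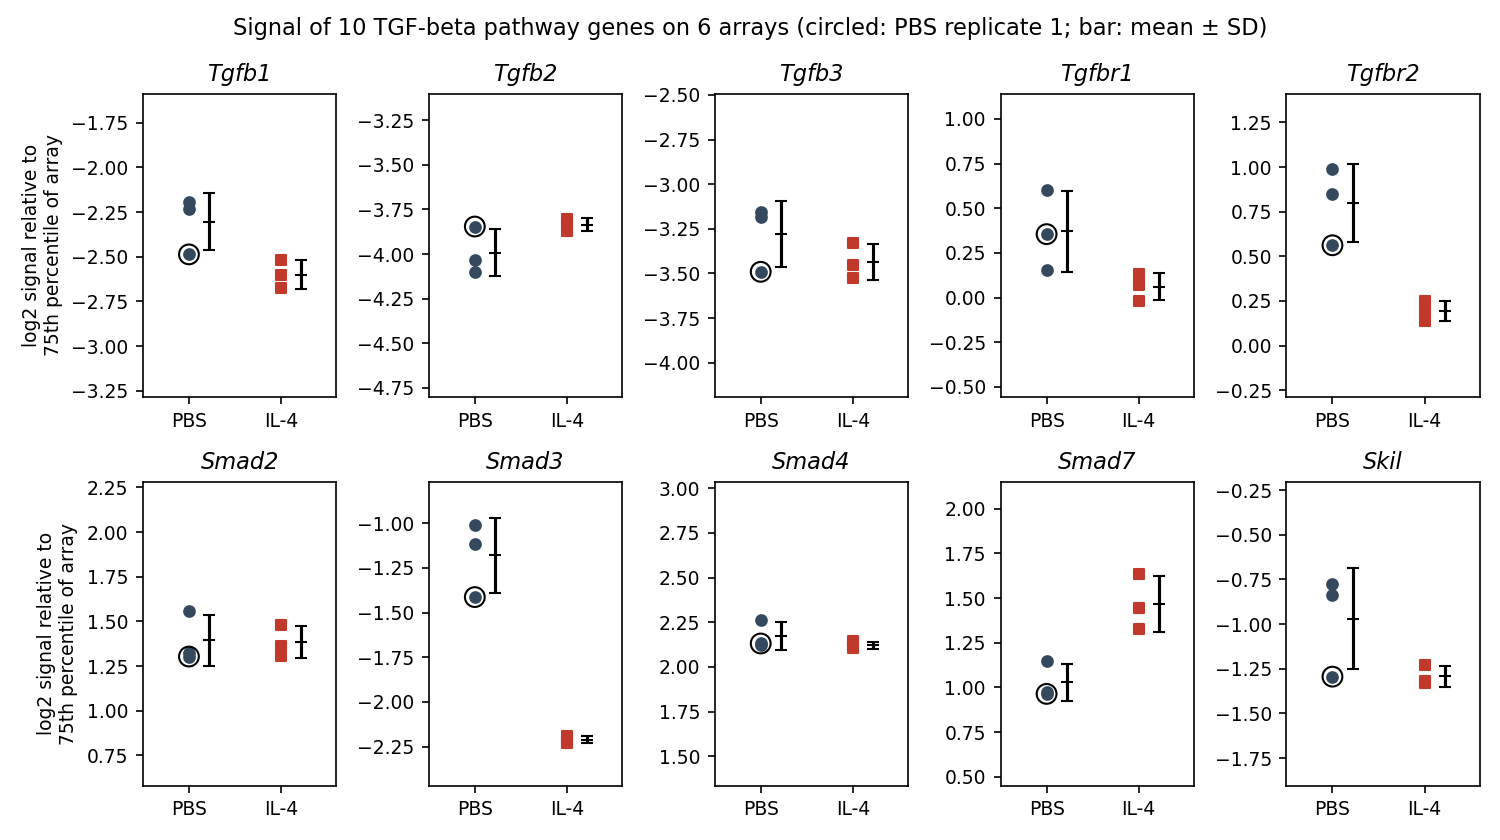
Log2 signal of the 10 genes, each by its brightest tested probe, minus the array's own 75th percentile (y axis, the same span of values in every panel), for 3 PBS arrays (circles) and 3 IL-4 arrays (squares), with the mean ± SD beside them. The ring marks PBS replicate 1, the PBS array on the slide of the IL-4 arrays. The Smad3 and Tgfbr2 squares lie below all circles, and the Smad7 squares lie above them.

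Smad3, a receptor-regulated Smad that binds DNA directly, had the largest difference of the family. Its log2 signal was -2.22, -2.23 and -2.19 on the IL-4 arrays, and -1.41, -1.12 and -1.01 on PBS replicates 1, 2 and 3. The IL-4 arrays were nearly identical to each other and all below the lowest PBS array, which was the one on their own slide. The difference was -1.03 ± 0.13 (SE, 95% confidence interval -1.32 to -0.74), a 2.05-fold lower signal with IL-4 (limma adjusted p = 0.0252). Within slide 1 the IL-4 mean differed from PBS replicate 1 by -0.80, and the single IL-4 arrays by -0.82 to -0.78. With slide as a block the interval was -1.06 to -0.54, but the adjusted p was 0.124. Leaving out PBS replicate 1 gave an adjusted p of 3.04e-04, in a fit that called 12657 of 29728 genes. That fit has all IL-4 arrays on slide 1 and all PBS arrays on slide 2, so treatment and slide cannot be told apart. The call was lost without IL-4 replicate 1, 2 or 3 (adjusted p = 0.178, 0.101 and 0.128) and without PBS replicate 2 or 3 (0.180 and 0.110), at differences of -1.04 to -0.95. The second probe of Smad3 was dim, with signals of 11 to 22.9 units against 156 to 360 for the first. It was well above background on 2 of 3 arrays in each group, so it was not tested. Its means were -5.47 with IL-4 and -5.56 with PBS, a difference of 0.09 with overlapping groups.

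Smad2, the other receptor-regulated Smad of the pathway, showed no such difference. Its log2 signal was 1.48, 1.31 and 1.36 with IL-4 and 1.30, 1.56 and 1.32 with PBS, with the arrays of both groups intermixed. The difference was -0.01 ± 0.11 (SE, 95% confidence interval -0.27 to 0.25, limma adjusted p = 0.953), and its sign changed under several scalings. Smad4, the common partner of both, was 2.11, 2.11 and 2.14 with IL-4 and 2.13, 2.26 and 2.12 with PBS. Its difference of -0.05 ± 0.10 had an interval of -0.28 to 0.17 (adjusted p = 0.717), and its dimmer second probe differed by -0.04 ± 0.14. The intervals of Smad2 and Smad4 both lie above that of Smad3.

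The Smads were also set against each other within each array, where scaling between arrays has no part. The log2 difference of Smad3 from Smad2 was lower with IL-4 by -1.02 as a group mean, and the groups did not overlap. Against Smad4 the change was -0.98. An exact two-sided permutation test over the 6 arrays gave p = 0.1 for each, the smallest p that 3 arrays against 3 allow. Within slide 1 the changes were -0.88 against Smad2 and -0.79 against Smad4. These pairs, among 5 compared, were picked after the values of the genes were seen.

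Tgfbr2, the type II receptor that binds the ligand, also fell. Its brighter probe read 0.25, 0.14 and 0.19 with IL-4 and 0.56, 0.85 and 0.99 on PBS replicates 1, 2 and 3. All IL-4 arrays lay below all PBS arrays, and PBS replicate 1 was again the nearest. The difference was -0.61 ± 0.13 (SE, 95% confidence interval -0.90 to -0.31), or 1.52-fold lower (limma adjusted p = 0.0492). The difference within slide 1 was -0.37, with the 3 arrays at -0.43 to -0.31, and the block gave an interval of -0.65 to -0.09 and an adjusted p of 0.352. The call was lost without IL-4 replicate 1, 2 or 3 (adjusted p = 0.197, 0.152 and 0.145) and without PBS replicate 2 or 3 (0.228 and 0.166). The second, dimmer probe of the same transcript had -2.23, -2.24 and -2.10 with IL-4 and -2.03, -1.88 and -1.83 with PBS. It lay lower on all IL-4 arrays by -0.28 ± 0.10, and did not pass in the fit over 35979 probes (adjusted p = 0.114, with 3.90% of probes called). The change of the brighter probe exceeded that of the dimmer one by -0.33 within arrays, without overlap between the groups (exact permutation p = 0.1). With the mean of both probes in place of the brighter one, the difference was -0.44 and did not pass (adjusted p = 0.0642).

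Tgfbr1, the type I receptor kinase, read -0.02, 0.13 and 0.07 with IL-4 and 0.35, 0.15 and 0.60 with PBS. The groups did not overlap, but the PBS arrays spread widely and PBS replicate 2 was close to the IL-4 arrays. The difference of -0.31 ± 0.13 did not pass (95% confidence interval -0.62 to -0.00, limma adjusted p = 0.145). Within slide 1 it was -0.29, with each IL-4 array at -0.37 to -0.22. The second probe was near background, with signals of 11.8 to 20.8 units with IL-4 and 21.4 to 35.8 with PBS, and was well above background on 2 of 3 IL-4 arrays. It entered the fit only through the PBS arrays, where it was higher, so its difference is given as a description. The difference was -0.68 over all arrays and -0.88 within slide 1, but -0.20 and -0.17 with the normexp background correction. The change of Tgfbr2 relative to Tgfbr1 within arrays was -0.30, with overlapping groups (exact permutation p = 0.2).

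Smad7, the inhibitory Smad that blocks the receptor, differed in the direction opposite to Smad3 but missed the threshold. Its log2 signal was 1.44, 1.33 and 1.64 with IL-4 and 0.96, 1.15 and 0.97 with PBS. Each IL-4 array was above each PBS array, and here PBS replicate 1 did not stand apart from the other PBS arrays. The difference was 0.44 ± 0.12 (SE, 95% confidence interval 0.17 to 0.71, limma adjusted p = 0.0626), a 1.36-fold higher signal. Within slide 1 the difference was 0.50, with the 3 arrays at 0.36 to 0.67, so it was as large there as over all arrays (adjusted p with the block 0.338). It passed under 6 of 19 alternatives, including the authors' deposited table (0.49, adjusted p = 0.0408). Relative to Smad3 within arrays, Smad7 was higher with IL-4 by 1.47, and by 1.30 within slide 1. Every IL-4 array lay above every PBS array for Smad7 and below every PBS array for Smad3. The groups therefore could not overlap for this pair, and its exact permutation p of 0.1 was fixed by those values. The pair was picked after they were seen, and its result adds no separate support.

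Skil encodes SnoN, a repressor that binds Smads. Its brighter probe was printed in 10 copies per array. It read -1.32, -1.23 and -1.33 with IL-4, and -1.29, -0.78 and -0.84 on PBS replicates 1, 2 and 3. PBS replicate 1 lay among the IL-4 arrays and differed from the mean of the other PBS arrays by -0.49. The difference of -0.32 ± 0.15 over all arrays did not pass (95% confidence interval -0.67 to 0.02, limma adjusted p = 0.165). Within slide 1 it was 0.00, with an interval of -0.26 to 0.26 from the block. Without PBS replicate 1 the difference was -0.49 and was called (adjusted p = 0.00584), but there treatment and slide cannot be told apart. The second, dimmer probe differed by 0.08 ± 0.11, so the probes did not share a sign.

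Of the ligands, none passed. Tgfb1, the ligand produced by microglia and macrophages, was read by a probe with 10 copies, at -2.68, -2.61 and -2.52 with IL-4 and -2.49, -2.23 and -2.19 with PBS. All IL-4 arrays were lower, but the highest of them differed from PBS replicate 1 by only -0.03 on the log2 scale. The difference was -0.29 ± 0.12 (95% confidence interval -0.56 to -0.03, limma adjusted p = 0.122). It was -0.11 within slide 1, and -0.39 without PBS replicate 1, where it was called (adjusted p = 0.0154). In that fit treatment and slide cannot be told apart. Tgfb3 had values of -3.53, -3.45 and -3.33 with IL-4 and -3.49, -3.18 and -3.16 with PBS, which overlap. Its difference was -0.16 ± 0.13 over all arrays (adjusted p = 0.381) and 0.06 within slide 1. Tgfb2 read -3.83, -3.80 and -3.87 with IL-4 and -3.85, -4.03 and -4.10 with PBS. Its difference was 0.16 ± 0.11 (adjusted p = 0.312) over all arrays and 0.01 within slide 1. The second Tgfb2 probe was not well above background on any array, with signals of 3.9 to 11 units.

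For Tgfb1, Tgfb3 and Skil the copies on each array show the spread of repeated readings of 1 sample. The SD between copies of a probe on 1 array was 0.0444 to 0.100 in log2 units. The SD between the 3 PBS arrays was 0.16 for Tgfb1, 0.19 for Tgfb3 and 0.28 for Skil. The SD between the 3 IL-4 arrays was smaller, at 0.08, 0.10 and 0.06. Copies on 1 array do not include variation between samples, arrays or slides. Each sample had 1 array, so these sources cannot be told apart in the SD between arrays. The PBS arrays were split between slides, while all IL-4 arrays lay on slide 1. The distance of PBS replicate 1 from the mean of the other PBS arrays was -0.27, -0.32 and -0.49 for these genes.

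This distance was shared by most of the family. PBS replicate 1 was lower than the mean of PBS replicates 2 and 3 for 9 of 10 genes, with a median of -0.21, against -0.08 over all genes. Groups did not overlap for 5 of 10 genes, 4 lower and 1 higher with IL-4, against 38.5% of all genes (19.8% lower and 18.7% higher). Within slide 1, 4 genes lay below PBS replicate 1 on all 3 IL-4 arrays and 2 lay above it, against 56% of all genes on 1 side or the other (25.5% below and 30.5% above). The median of the family within slide 1 was -0.00, against 0.01 over all genes. With slide as a block 0 of 10 genes were called by limma, against 0.0303% of all genes (9 genes), and Smad3, Smad7 and Tgfbr2 (3 of 10) had an unadjusted p under 0.05, against 10.2% of all genes. That fit has a single PBS array to compare with on slide 1.

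**Figure D2:**
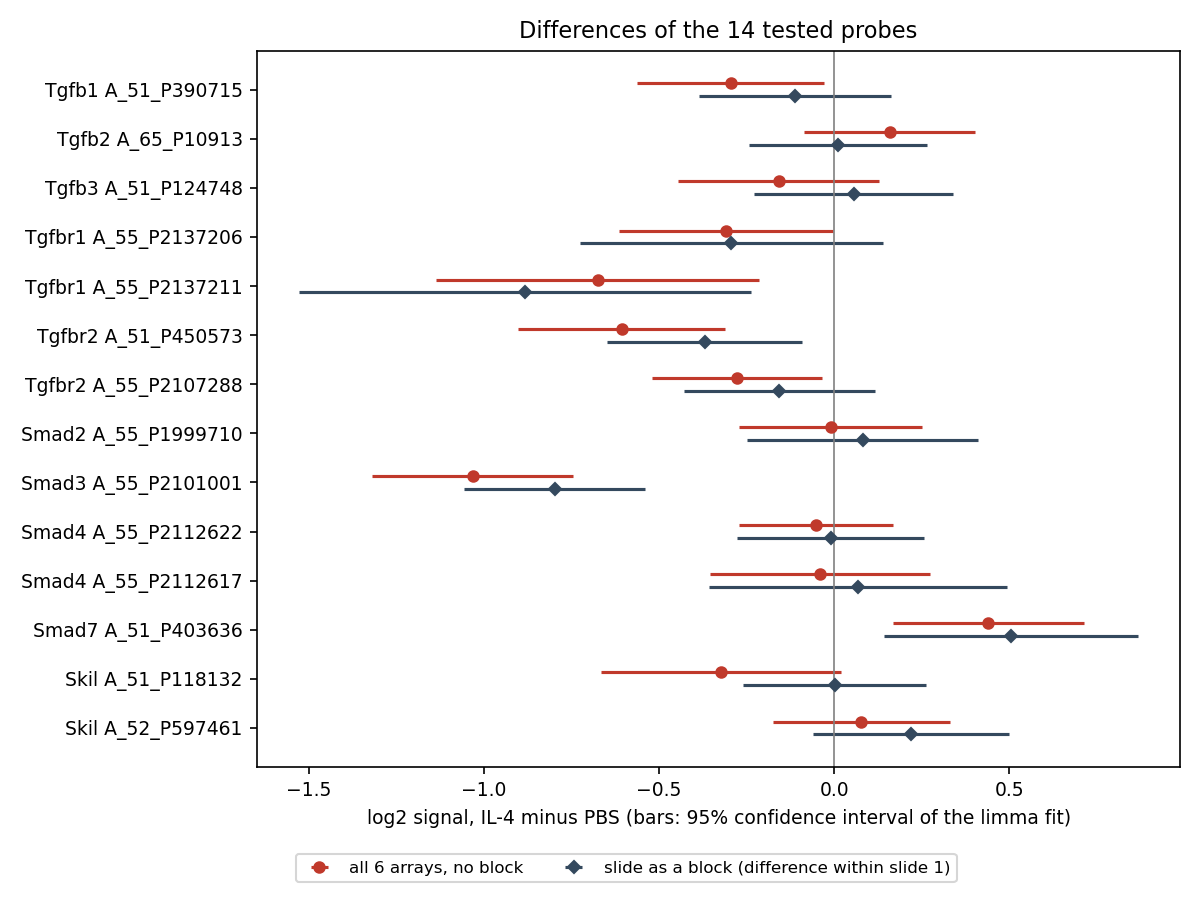
Log2 difference of IL-4 minus PBS (x axis) for the 14 tested probes of the family (y axis), over all 6 arrays (red circles) and with slide as a block (dark diamonds), where bars are 95% confidence intervals of the limma fits. Tgfbr1 A_55_P2137211 entered only through the PBS arrays. Smad3 is at -1.03 and -0.80, Smad7 at 0.44 and 0.50, and Skil A_51_P118132 at -0.32 and 0.00.

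The rest of the pathway was followed in 7 lists with 152 different genes, of which 140 were tested. Of these, 1 rose and 3 fell (2.86% called, against 3.35% of all genes). With slide as a block limma called 0, and 14 of 140 had an unadjusted p under 0.05, against 10.2% of all genes. Leaving out any single array other than PBS replicate 1 also left 0 called, with 29 to 38 at an unadjusted p under 0.05. Over all genes these fits had 6088 to 8038 at that threshold, of 29752 to 31322 tested. Without PBS replicate 1, where treatment and slide cannot be told apart, 60 of 140 were called, against 12657 of 29728 genes. Over all 6 arrays, 2.54% of all genes fell and 0.807% rose. At an unadjusted p under 0.05, 17.5% of all genes were lower and 16.6% higher. Among 13 tested receptors and co-receptors, 1 fell and 0 rose, while at an unadjusted p under 0.05 there were 5 lower and 2 higher. Their median was -0.25 over all arrays and -0.06 within slide 1, against -0.05 and 0.01 over all genes. The gene that fell was Acvr2a, a type II receptor of activins. It read -2.19, -1.90 and -2.14 with IL-4 and -1.60, -1.44 and -1.54 with PBS, without overlap. Its difference was -0.55 ± 0.12 (adjusted p = 0.0484) and -0.48 within slide 1.

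Among 18 other Smads, adaptors and Smad partners, 1 fell and 0 rose. At an unadjusted p under 0.05, 3 were lower and 1 higher, against 17.5% and 16.6% of all genes. The median of the list was -0.07 over all arrays and 0.01 within slide 1. The gene that fell was Trim33, a ubiquitin ligase that binds Smads. It read -0.59, -0.35 and -0.70 with IL-4 and -0.07, 0.25 and 0.11 with PBS, again without overlap. The difference was -0.65 ± 0.13 (adjusted p = 0.0482) and -0.48 within slide 1. Among 18 negative regulators and ubiquitin enzymes, 1 rose and 0 fell. At an unadjusted p under 0.05, 5 were higher and 3 lower, against 16.6% and 17.5% of all genes. The median of this list was 0.10 over all arrays and 0.10 within slide 1. The gene that rose was Ppp1r15a, also called GADD34, which brings a phosphatase to the type I receptor. It is better known for its part in the stress response. It read 4.33, 4.03 and 4.41 with IL-4 and 3.66, 3.35 and 3.16 with PBS, and differed by 0.87 ± 0.16 (adjusted p = 0.0394) and by 0.60 within slide 1.

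None of the 29 tested target genes of TGF-beta and the Smads was called by limma. At an unadjusted p under 0.05, 4 were higher and 3 lower, a smaller share than the 34.1% of all genes. Their median was 0.09, and within slide 1 it was 0.08, against -0.05 and 0.01 over all genes. Within slide 1, 22 of 29 were above 0, but every gene is compared there with 1 PBS array. The share of all genes above 0 was not counted. The lowest p-values were those of Gadd45b, a stress-induced regulator of kinase signalling, and Ltbp3, which stores the ligand in the matrix. Gadd45b differed by -0.58 ± 0.14 (adjusted p = 0.0541) and Ltbp3 by 1.35 ± 0.38 (adjusted p = 0.0658). The IL-4 arrays of Ltbp3 ranged from -0.22 to 0.94 and its PBS arrays from -1.78 to -0.43, a wide spread in both groups. Among 19 genes of ligand storage and activation 0 were called. At an unadjusted p under 0.05, 3 were higher and 2 lower, against 16.6% and 17.5% of all genes. The median of these 19 was -0.14 over all arrays and -0.00 within slide 1. The lowest p-value of this list was that of Emilin1, a matrix glycoprotein that limits processing of the ligand, and the next was that of Ltbp3. Emilin1 had a difference of -0.50 ± 0.13 (adjusted p = 0.0582).

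Of 25 microglial genes known to depend on TGF-beta, 1 fell and 0 rose, and 8 were lower and 0 higher at an unadjusted p under 0.05, a total near the 34.1% of all genes, of which 17.5% were lower. The median of the list was -0.14 over all arrays and -0.09 within slide 1. Gpr34, a lysophospholipid receptor, was the gene that fell. It read -4.64, -4.11 and -3.97 with IL-4 and -2.55, -2.58 and -2.22 with PBS, and its difference was -1.79 ± 0.19 (adjusted p = 0.0228) and -1.69 within slide 1. Beside this list, 3 of 13 tested markers of macrophages and microglia fell and 0 rose, where 2.54% of all genes fell. Their median was -0.42 over all arrays and -0.21 within slide 1. At an unadjusted p under 0.05, 7 of these 13 were lower and 0 higher, against 17.5% and 16.6% of all genes. With slide as a block limma called 0 of the 13, with 4 at an unadjusted p under 0.05, against 10.2% of all genes. Their summed level, as a multiple of the array's own 75th percentile, was 62.1 to 66.7 with IL-4 and 64.9 to 78.9 with PBS, and their part in the differences above was not tested. The 3 genes were Lyz2 (-0.81), Aif1 (-0.72) and Tyrobp (-0.95), a lysozyme, a calcium-binding protein and a signalling adaptor of these cells. Both lists share genes, among them Cx3cr1, P2ry12, Csf1r and Tmem119.

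**Figure D3:**
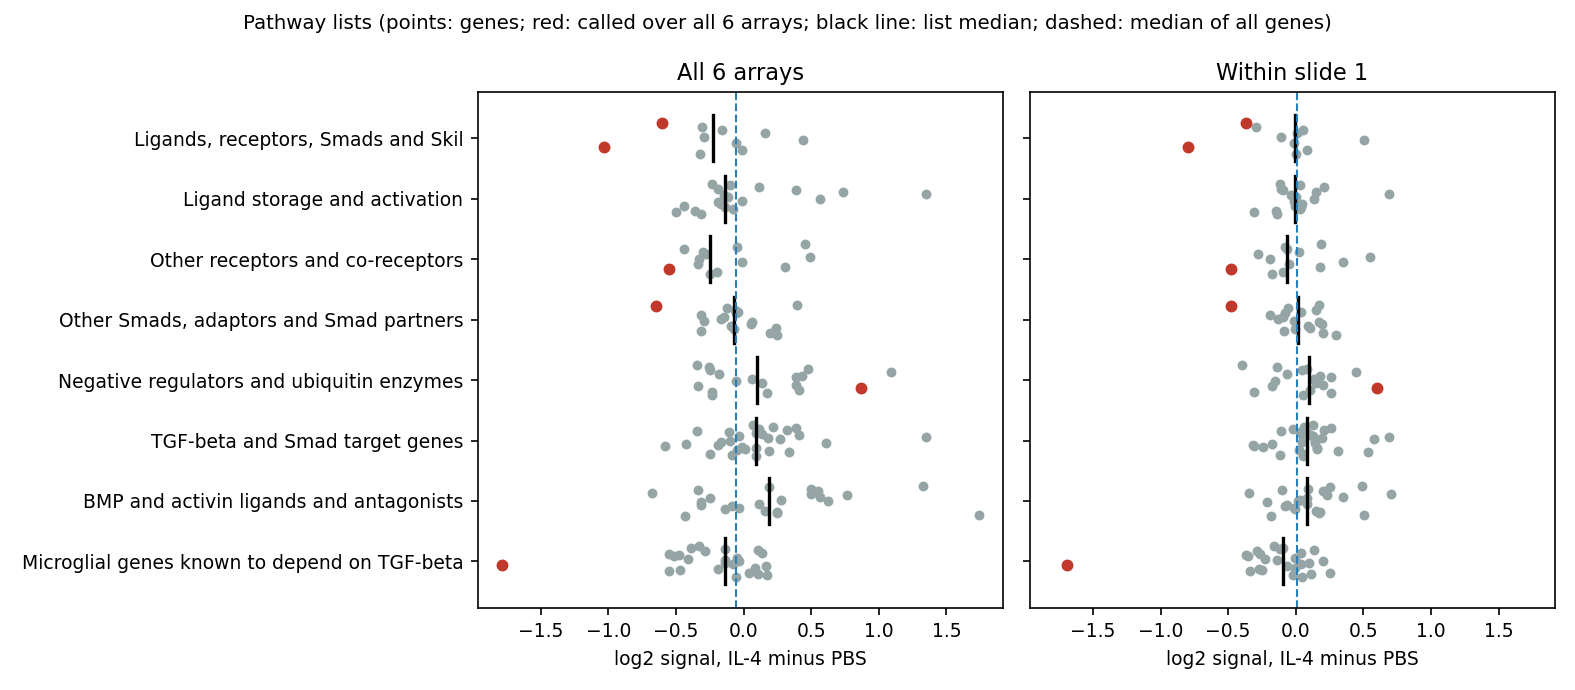
Log2 difference of IL-4 minus PBS (x axis) for the tested genes of the family and of 7 pathway lists (y axis), over all 6 arrays on the left and within slide 1 on the right. Points are genes, red points were called over all 6 arrays, black lines are list medians and the dashed line is the median of all genes. Smad3 and Gpr34 are the red points farthest to the left in their lists, and the family's median is -0.23 on the left and -0.00 on the right.

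Markers of 6 other cell types were read in the same fit, and limma called none of their 41 tested genes, with 13 at an unadjusted p under 0.05, a share near the 34.1% of all genes. Levels were summed over the genes measured on all 6 arrays. These sums overlapped between the groups for astrocytes, endothelium and fibroblasts. They did not for neurons (5.89 to 6.51 with IL-4, 4.07 to 5.20 with PBS), oligodendrocytes (3.81 to 4.25 and 2.25 to 3.67) and lymphocytes (1.87 to 2.01 and 1.05 to 1.58). The part of these markers in the results was not tested. The brightest genes of these lists were Aqp4, Pecam1, Col3a1, Syp, Mog and Cd4. Aqp4, without a value on PBS replicate 3, and Cd4, without one on PBS replicate 2, are not in the sums. Aqp4 had a mean log2 signal of 3.66 with IL-4 and 3.58 with PBS, and Cd4 of 3.10 and 1.68, a difference of 1.42 (adjusted p = 0.0585).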

How the data were processed

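Total RNA of 6 BV2 samples was labelled with Cy3 and hybridised to 1 single-colour Agilent array each. Per the file headers, the deposited intensity values are the processed signals of Agilent Feature Extraction 11.0.1.1, with background already subtracted and spatial trends removed. The authors' deposited value table holds log2 values with a median of 6.92 on each array, which correlated with the log2 processed signals at 0.9991 to 0.9996, and was used as an alternative. Here, flagged outlier spots (87 to 394 per array) and controls were left out, each array's own 75th percentile was subtracted from its log2 signals, and copies of a probe were averaged. A probe was tested where Feature Extraction called it well above background on all 3 arrays of IL-4, of PBS or of both, and each gene was represented by its brightest such probe. Of 39429 probes, 69.1% were named by transcript accession through the RefSeq table of GRCm38.p6. No coordinates were converted.

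IL-4 was compared with PBS by limma 3.58.1 (R 4.3.3), with lmFit and eBayes on all tested genes and Benjamini-Hochberg adjustment. A gene with a missing array was kept in the fit. A fit with slide as a block gave the difference within slide 1, and within-array differences had an exact two-sided permutation test. The planned normexp alternative was run on median spot signals, and mean spot signals were not used here. Samples were not treated as pairs in the main fit. Deviations of same-numbered samples correlated at 0.083, -0.016 and 0.296, and those of differently numbered samples at -0.19 to 0.064. With 3 arrays per group these correlations cannot decide whether replicate numbers pair the samples.

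The members and lists were chosen with earlier results of these data known. All 10 members were named. Of each pathway list the up to 4 called genes with the largest change were named, or the 2 with the lowest p-value where none was called, and of each other cell type the brightest gene. The 3 macrophage markers called and the genes named as shared by both lists were named after their values were seen.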

Additional observations from a re-analysis of the deposited data

How the results depend on the processing

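Of 19 alternatives, 2 were chosen after seeing the data: leaving out the arrays in position 1 of each slide, and using only probes measured on all 6 arrays. With slide as a block, calls went from 2 to 0 of the family, 997 to 9 of all genes and 4 to 0 of the pathway lists, and without the position 1 arrays to 0, 0 and 0 (4, 3569 and 19 at an unadjusted p under 0.05). Leaving out 1 array gave 0 to 5, 0 to 12657 and 0 to 60 calls in these sets and 0 to 6 of the family's probes. Every count above its own without an array left out came without PBS replicate 1, where treatment and slide cannot be told apart. Over all genes, quantile normalization called 2637, the array median as the scale 1733, the 75th percentile over probes detected on every array 523, normexp 4058 with the 75th percentile (2032 higher, against 240 higher of 997) and 3096 with quantiles, the authors' deposited values 2299, no filter 15, the strictest filter 3808 and the mean of probes 605. The pathway lists had, in this order, 12, 8, 2, 17, 14, 11, 0, 17 and 2 calls. Among the family's genes the percentile over probes detected on every array and the mean of probes left 1 call, and no filter left 0 (4 at an unadjusted p under 0.05). Among its probes, quantile normalization and the authors' deposited values gave 4 calls, the percentile over probes detected on every array 1, and no filter and the slide block 0. The replicate block gave 3770 calls over all genes and 18 in the pathway lists, and left the count of the family at 2. Whether replicate numbers pair the samples is not known.

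Smad3 differed by -1.15 to -0.80 over the alternatives and was called in 11 of 19, Tgfbr2 by -0.73 to -0.37 and in 9, and Smad7 by 0.36 to 0.51 and in 6. Smad2 changed sign with quantile normalization (0.0161), the percentile over probes detected on every array (0.0350), normexp with quantiles (0.0131), the authors' deposited values (0.0452), the slide block (0.0808) and without the position 1 arrays (0.0219), and leaving out 1 array gave -0.0596 to 0.0709. The second Smad4 probe changed sign with the same 75th percentile (0.0054) and with the slide block (0.0680), and leaving out 1 array gave -0.1284 to 0.1021. Tgfb3 (0.0550) and Skil (0.0010) changed sign with the slide block. The cause of these changes was not tested. Signals near background limit the second probes of Tgfb2, Tgfbr1 and Smad3.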

Other observations

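The BMP and activin ligands and their antagonists, a neighbouring branch of the same superfamily, were read beside the TGF-beta genes. Of 29 listed genes 23 were tested, and limma called 0 of them, with 9 higher and 1 lower at an unadjusted p under 0.05, against 34.1% of all genes (16.6% higher and 17.5% lower). The median difference was 0.19 over all arrays and 0.09 within slide 1, against -0.05 and 0.01 over all genes. The lowest p-values were those of Gdf15, a stress-induced cytokine, and Nog, the BMP antagonist Noggin. Gdf15 read 6.06, 5.79 and 6.04 with IL-4 and 5.62, 5.40 and 5.17 with PBS, a difference of 0.57 ± 0.14 (SE, adjusted p = 0.0581) that was 0.35 within slide 1. Nog read 2.18, 2.06 and 2.41 with IL-4 and 1.73, 0.71 and 0.24 on PBS replicates 1, 2 and 3. Its difference was 1.32 ± 0.33 (adjusted p = 0.0581) over all arrays and 0.49 within slide 1. PBS replicate 1 was the PBS array nearest to the IL-4 arrays for both genes, and the part of the slide in these differences was not tested.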
